A study of Bos taurus with 6 samples.

Results

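Interferon-stimulated antiviral genes are genes that cells switch on when interferon binds its receptors. They were chosen as a list of 44 gene symbols matched to the gene names of a bovine count table. The list named 43 genes, since DDX58 is an older symbol of RIGI. A row carried the name of 37 of them, out of 36577 loci in the table. BST2, GBP4, GBP5, IFI16, PLAC8 and SP100 had no row of that name. 36 of the 37 passed the filter on low counts, and OAS2 did not. The RNA came from primary hepatocytes, the main cell type of the liver, of healthy, fasted female calves aged 1 day. All cells were wild type and received palmitic acid (PA), a saturated fatty acid that loads hepatocytes with lipid, at 400 µmol/L. In the PA + DMSO group (n = 3 libraries) DMSO, a solvent, was added, and in the PA + 3-IAA group (n = 3) 200 µmol/L indole-3-acetic acid (3-IAA), an indole made from tryptophan by plants and gut microbes. The series title names lipid accumulation, endoplasmic reticulum stress and SIRT3 as its subject. No group without PA was analysed here, and neither treatment time nor calf is given per library, so p-values measure the spread between these libraries, which may be technical.

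Type I and type III interferons are secreted by cells that sense foreign or misplaced nucleic acid. They bind receptors linked to the kinases JAK1 and TYK2, which phosphorylate STAT proteins. STAT2 and IRF9 are parts of a complex that enters the nucleus and binds interferon-stimulated response elements. The genes it turns on include nucleic acid sensors, enzymes that degrade RNA or stop its translation, proteins that bind foreign RNA, and the ISG15 conjugation system. Hepatocytes carry receptors of both types and mount this response to hepatitis viruses. Many of the genes also have a basal level without added interferon.

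Polyadenylated RNA was sequenced to totals between 16580723 and 22562450 expected counts per library. Levels of a gene are given as CPM, its count scaled to the library size after TMM, and levels are compared between genes as TPM, which also divides by transcript length. The values of each group are listed in the order of replicates 1 to 3. A gene with 3 counts stood at 0.128 to 0.188 CPM on that scale, depending on the library. The first principal component, with 78.5% of the variance of 15576 genes, put PA + DMSO replicate 3 at -15.67, the other 2 PA + DMSO libraries at -54.02 and -54.7, and the PA + 3-IAA libraries between 41.25 and 41.83. PA + DMSO replicate 3 thus stood apart from its group, and results are given with and without it. It was singled out from these same data. A fit without it, with 2 PA + DMSO libraries left, is therefore not separate support for a difference. The libraries were bulk RNA, in which fewer cells of a type and less RNA per cell cannot be told apart.

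Most of the antiviral genes were higher with 3-IAA. Of the 36 tested, 32 were higher at an edgeR adjusted p under 0.05 (Benjamini-Hochberg over all genes), against 25.4% of all 15576 genes tested. ISG20 was the 1 called lower, against 25.8% of all genes. OAS1Y, IFIT1 and PARP12 did not pass. The groups by role below are parts of these 36 genes and are to be read against the same shares. The median log2 fold change was 1.13 for the 36 genes and 0.003 for all genes tested. Among the 32, folds ran from 1.38 for TRIM25 to 5.78 for MX2, and 20 were at least 2-fold higher, against 4.53% of all genes.

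The 3 PA + 3-IAA libraries lay above all 3 PA + DMSO libraries in CPM for 33 of the 36, against 31.5% of all genes tested. In 33 of the 36, PA + DMSO replicate 3 lay above the other 2 PA + DMSO libraries and below every PA + 3-IAA library, against 24.4% of all genes. The median gene of the list was 0.71 higher on the log2 scale in replicate 3 than in the mean of PA + DMSO replicates 1 and 2, and 0.70 higher in the PA + 3-IAA mean than in replicate 3. The same medians over all genes tested were 0.006 and 0.001. Without that library, 33 of 37 genes were called higher against 30.9% of all genes, and IFIT1 and ISG20 lower against 29.7%, with a median log2 fold change of 1.39.

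**Figure D1:**
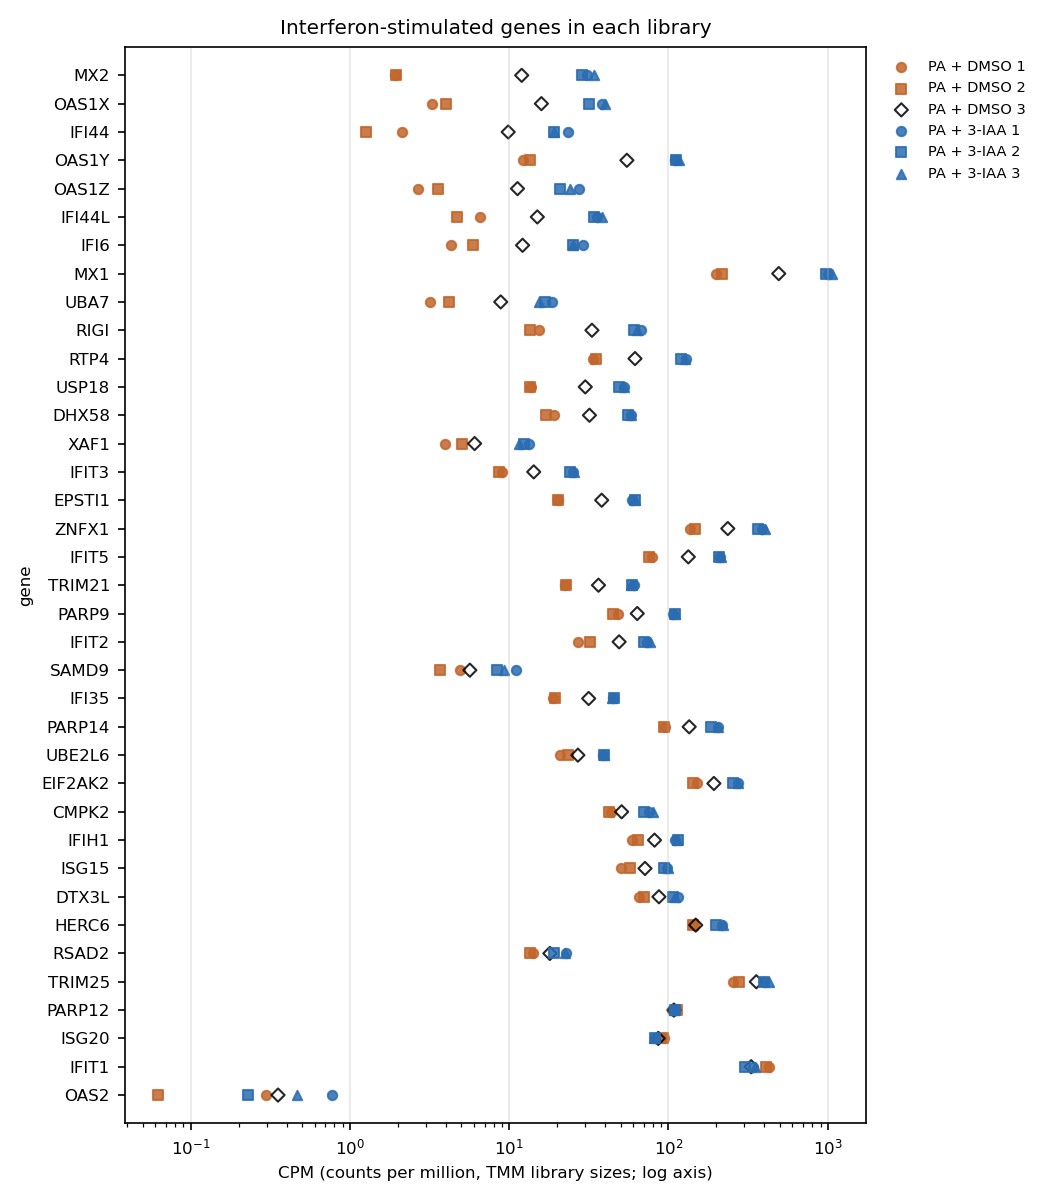
Level in CPM (log axis) of each of the 37 antiviral genes in each of the 6 libraries, 1 point per library, with genes ordered by fold change and OAS2, not tested, last. The 3 PA + 3-IAA libraries are the highest in 33 of 36 tested genes, and PA + DMSO replicate 3 lies between them and the other 2 PA + DMSO libraries in 33 of 36.

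**Figure D2:**
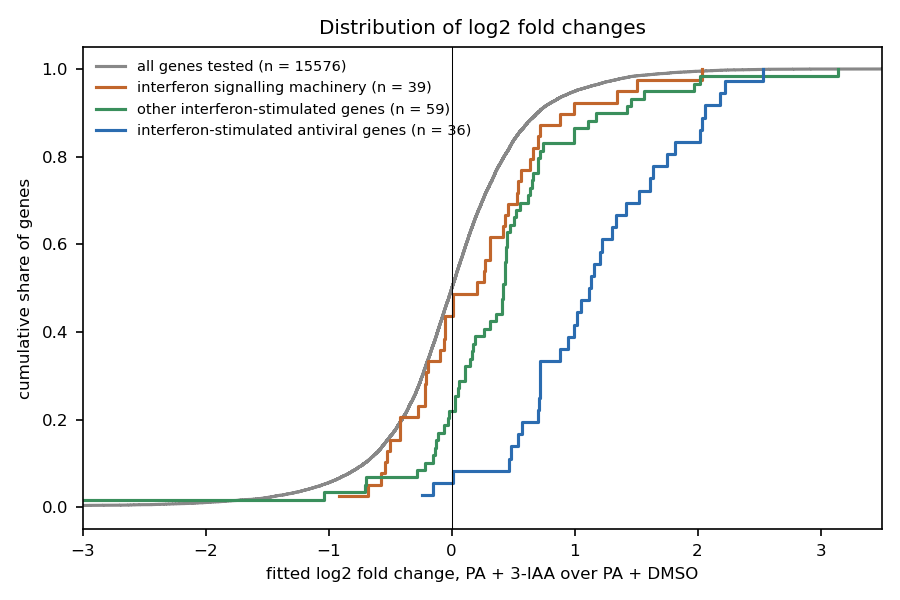
Cumulative share of genes by fitted log2 fold change (PA + 3-IAA over PA + DMSO) for all 15576 genes tested, the 36 antiviral genes, the signalling genes and the other interferon-stimulated genes. The antiviral genes lie to the right, with a median of 1.13 against 0.003 for all genes. The horizontal axis is clipped, which leaves the most changed genes, APOBEC3Z1 among them, outside.

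The 4 listed helicases that sense RNA or tune its sensors were all higher with 3-IAA, against 25.4% of all genes tested. RIGI, which detects RNA with a triphosphate end, was at 15.3, 13.5 and 33.1 CPM in PA + DMSO and at 66.9, 61.2 and 63.2 CPM in PA + 3-IAA. The groups did not overlap, and PA + DMSO replicate 3 was more than its 2 partners and less than any PA + 3-IAA library. The difference was 3.07-fold (log2 fold change 1.62, SE 0.36, edgeR adjusted p = 0.0172), and 4.4-fold without that library. IFIH1 (MDA5), the sensor of long double-stranded RNA, was at 59.3, 64.3 and 81.7 CPM in PA + DMSO and 109, 114 and 113 CPM in PA + 3-IAA. It was 1.64-fold higher (log2 fold change 0.71, SE 0.11, edgeR adjusted p = 0.000875). DHX58 (LGP2), a related helicase that tunes both sensors, was at 19.0, 16.9 and 31.9 CPM against 58.2, 55.4 and 58.1 CPM, or 2.52-fold higher (log2 fold change 1.33, SE 0.23, edgeR adjusted p = 0.00456). ZNFX1, a helicase that binds double-stranded RNA at mitochondria, had the highest level per length of the 4 in PA + DMSO, at a mean of 36.3 TPM, against 7.95 TPM for RIGI. It measured 136, 146 and 236 CPM in PA + DMSO and 385, 363 and 406 CPM in PA + 3-IAA, and was 2.23-fold higher (log2 fold change 1.16, SE 0.22, edgeR adjusted p = 0.00655).

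The OAS enzymes make short adenylate chains that switch on RNase L, which cuts RNA. Cattle carry 3 OAS1 copies, OAS1X, OAS1Y and OAS1Z, which stand next to each other in RefSeq gene order (assembly ARS-UCD2.0), with OAS2 before them. OAS1Y held 62.7% to 67.8% of the 3 copies' counts in every library. It was at 12.1, 13.5 and 54.8 CPM in PA + DMSO and 111, 111 and 116 CPM in PA + 3-IAA. The groups did not overlap, but the spread within PA + DMSO was wide, and the 4.16-fold difference did not pass (log2 fold change 2.06, SE 0.67, edgeR adjusted p = 0.0593). Without PA + DMSO replicate 3, the highest library of its group for OAS1Y, the difference was 8.83-fold (log2 fold change 3.14, edgeR adjusted p = 7.95e-26). Leaving out that library had to raise the fold, so this p-value is not separate support. Without any other 1 library OAS1Y did not pass (log2 fold change 1.70 to 2.07, largest edgeR adjusted p = 0.136). OAS1X was at 3.26, 4.01 and 15.9 CPM against 38.2, 31.8 and 40.2 CPM, 4.68-fold higher (log2 fold change 2.23, SE 0.61, edgeR adjusted p = 0.0343) and 10.2-fold without replicate 3. OAS1Z was at 2.66, 3.57 and 11.3 CPM against 27.5, 21.0 and 24.2 CPM, 4.1-fold higher (log2 fold change 2.04, SE 0.54, edgeR adjusted p = 0.0296) and 7.91-fold without replicate 3.

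The split of reads between the 3 OAS1 copies is uncertain. In 5 libraries at least 1 copy had a fractional count, and in all 5 the 3 counts summed to a whole number within 0.02, as reads divided among the copies would. Summed over the copies, OAS1 was at 18.1, 21.1 and 82.0 CPM in PA + DMSO and at 176, 164 and 180.1 CPM in PA + 3-IAA. The sum was 4.27-fold higher with 3-IAA and did not pass (log2 fold change 2.10, SE 0.68, edgeR adjusted p = 0.0593). The calls of OAS1X and OAS1Z were fragile too: OAS1X lost its call without any 1 library other than PA + DMSO replicate 3 (log2 fold change 1.84 to 2.32, largest edgeR adjusted p = 0.0963), and OAS1Z without PA + DMSO replicate 2 or any PA + 3-IAA library (log2 fold change 1.80 to 2.13, largest edgeR adjusted p = 0.0871). OAS2 had 6, 1 and 7 counts in PA + DMSO and 18, 5 and 10 in PA + 3-IAA, too few for the test.

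EIF2AK2 (PKR), a kinase that double-stranded RNA activates to stop translation, stood in place 6 of the antiviral genes per length in PA + DMSO, at a mean of 73.8 TPM. It was at 151, 142 and 193 CPM in PA + DMSO and 274, 252 and 274 CPM in PA + 3-IAA. Every PA + 3-IAA library was above every PA + DMSO library, a 1.65-fold difference (log2 fold change 0.72, SE 0.11, edgeR adjusted p = 0.000838).

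**Figure D3:**
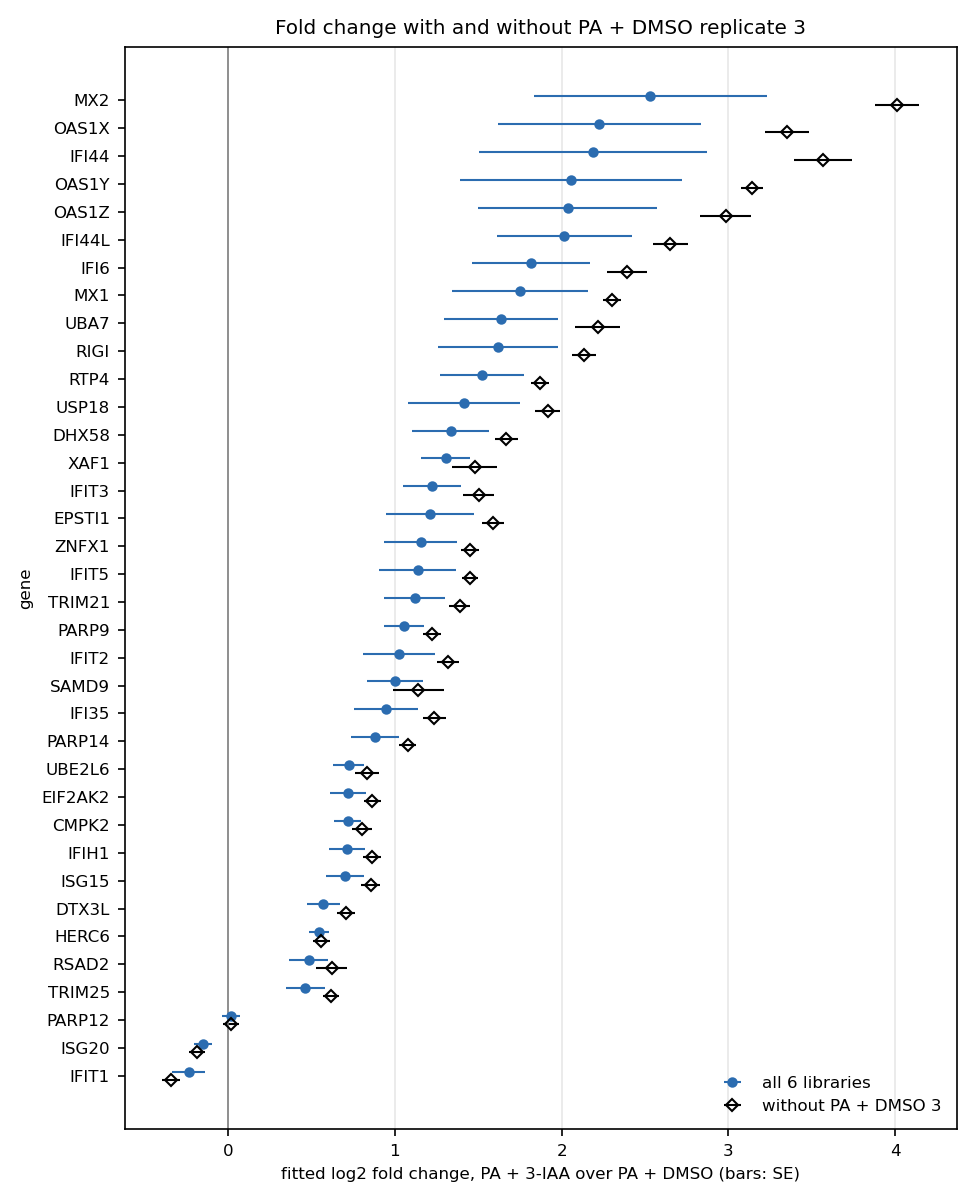
Fitted log2 fold change of each tested antiviral gene (PA + 3-IAA over PA + DMSO, bars are the SE), with all 6 libraries and without PA + DMSO replicate 3. MX2, OAS1X and IFI44 have the largest called values with all libraries, at 2.53, 2.23 and 2.19, and rise to 4.01, 3.35 and 3.57 without that library.

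Some IFIT proteins bind RNA ends that lack host marks and block translation of such RNA, and here the 4 listed genes did not move together. IFIT2, IFIT3 and IFIT5 were higher with 3-IAA, and IFIT1 was not. IFIT3, which stabilises IFIT1 in human cells, was at 8.98, 8.58 and 14.3 CPM in PA + DMSO and 25.3, 24.1 and 25.4 CPM in PA + 3-IAA, 2.34-fold higher (log2 fold change 1.23, SE 0.17, edgeR adjusted p = 0.000776). IFIT2, its neighbour in RefSeq gene order, was at 27.1, 32.0 and 49.0 CPM against 73.1, 70.4 and 76.4 CPM, 2.03-fold higher (log2 fold change 1.02, SE 0.21, edgeR adjusted p = 0.00919). Replicate 3 of PA + DMSO was the highest of its group for both. IFIT5 was at 78.3, 75.9 and 133 CPM against 212, 207 and 214 CPM, 2.2-fold higher (log2 fold change 1.14, SE 0.23, edgeR adjusted p = 0.00883). IFIT1 had the highest level per length of the 4, a mean of 191 TPM in PA + DMSO, and did not follow them. It was at 426, 409.6 and 330.4 CPM in PA + DMSO and 339, 300.1 and 349.9 CPM in PA + 3-IAA. PA + DMSO replicate 3 fell within the PA + 3-IAA range there, and the difference did not pass (log2 fold change -0.24, SE 0.10, edgeR adjusted p = 0.077). Without that library, the lowest of its group for IFIT1, the gene was lower with 3-IAA (log2 fold change -0.34, edgeR adjusted p = 9.49e-06). IFIT1 did not pass without any other 1 library (largest edgeR adjusted p = 0.249).

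The MX proteins are large GTPases of the dynamin family that trap viral nucleocapsids, and both were higher with 3-IAA. MX1 was at 198, 216 and 492 CPM in PA + DMSO and at 1009.9, 973 and 1070.2 CPM in PA + 3-IAA, or 302 ± 165 against 1018 ± 49.1 CPM (SD, n = 3 each). The groups did not overlap, with PA + DMSO replicate 3 at 2.38 times the mean of the other 2 libraries. The difference was 3.37-fold (log2 fold change 1.75, SE 0.41, edgeR adjusted p = 0.0202). MX2, its neighbour in RefSeq gene order, had a mean of 2.02 TPM in PA + DMSO against 192 TPM for MX1, and was at 1.92, 1.94 and 12.0 CPM in PA + DMSO and 30.7, 28.7 and 34.3 CPM in PA + 3-IAA. Its 5.78-fold difference (log2 fold change 2.53, SE 0.70, edgeR adjusted p = 0.0355) was the largest called among the antiviral genes and became 16.1-fold without PA + DMSO replicate 3. MX1 lost its call without replicate 2 of PA + DMSO (log2 fold change 1.56, edgeR adjusted p = 0.0613) or replicate 3 of PA + 3-IAA (1.72), and MX2 without any 1 library other than PA + DMSO replicate 3 (log2 fold change 2.10 to 2.59, largest edgeR adjusted p = 0.0894).

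The ISG15 system, which attaches the ubiquitin-like protein ISG15 to other proteins, was higher with 3-IAA in all 6 listed genes. The share called higher among all genes tested was 25.4%. ISG15 itself was at 50.5, 57.5 and 71.2 CPM in PA + DMSO and 97.6, 94.0 and 99.9 CPM in PA + 3-IAA, 1.63-fold higher (log2 fold change 0.70, SE 0.11, edgeR adjusted p = 0.00123). UBA7, its activating enzyme, was scarcer, with a mean of 2.39 TPM in PA + DMSO against 259 TPM for ISG15. UBA7 was at 3.21, 4.2 and 8.85 CPM against 18.6, 16.9 and 15.4 CPM, or 3.11-fold (log2 fold change 1.64, SE 0.34, edgeR adjusted p = 0.0086). UBE2L6, its conjugating enzyme, was at 20.8, 23.4 and 27.0 CPM against 38.6, 39.7 and 39.3 CPM, 1.65-fold (log2 fold change 0.72, SE 0.09, edgeR adjusted p = 0.000244). PA + DMSO replicate 3 was the highest of its group for all 3 of these. HERC6, the ISG15 ligase in mice, was at 144, 143 and 148 CPM against 215, 198 and 219 CPM, 1.46-fold (log2 fold change 0.54, SE 0.06, edgeR adjusted p = 0.000138), and there replicate 3 lay close to the other PA + DMSO libraries. USP18 removes ISG15 from proteins and also binds IFNAR2 to damp the response to interferon. It was at 13.7, 13.5 and 30.0 CPM in PA + DMSO and 52.2, 49.0 and 52.4 CPM in PA + 3-IAA, 2.67-fold higher (log2 fold change 1.42, SE 0.34, edgeR adjusted p = 0.0191). The USP18 call was lost without PA + 3-IAA replicate 1 (log2 fold change 1.41) or 3 (1.40, largest edgeR adjusted p = 0.0514). TRIM25, a ubiquitin ligase that acts on RIGI, had the smallest called increase at 1.38-fold (log2 fold change 0.46, SE 0.12, edgeR adjusted p = 0.0106), from 255, 277 and 356 CPM to 397, 397 and 430.1 CPM.

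PARP9, DTX3L and PARP14 follow each other in RefSeq gene order and all 3 were higher with 3-IAA, while PARP12 was not called. PARP9 and the ubiquitin ligase DTX3L form a complex that works in ADP-ribosylation and antiviral defence. PARP9 was at 48.2, 44.6 and 63.6 CPM in PA + DMSO and 107, 109 and 109 CPM in PA + 3-IAA, 2.08-fold higher (log2 fold change 1.06, SE 0.12, edgeR adjusted p = 0.000279). DTX3L was at 65.3, 70.2 and 87.1 CPM against 115, 106 and 109 CPM, 1.49-fold (log2 fold change 0.57, SE 0.10, edgeR adjusted p = 0.00154). Both had fractional counts in 2 libraries whose sum was whole, so some reads may have been divided between them. PARP14, a mono-ADP-ribosyltransferase, was at 94.9, 93.4 and 135 CPM against 204, 186 and 205 CPM, 1.84-fold (log2 fold change 0.88, SE 0.14, edgeR adjusted p = 0.00192). PARP12, another such enzyme, lay between 105 and 113 CPM in the 6 libraries, and its groups overlapped (log2 fold change 0.02, SE 0.06, edgeR adjusted p = 0.83).

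RSAD2 (viperin) makes a chain-terminating nucleotide, and CMPK2, beside it in RefSeq gene order, is a nucleotide kinase. RSAD2 was at 14.2, 13.6 and 18.0 CPM in PA + DMSO and 22.6, 19.1 and 22.5 CPM in PA + 3-IAA, 1.4-fold higher (log2 fold change 0.48, SE 0.12, edgeR adjusted p = 0.00773). CMPK2 was at 43.8, 42.4 and 50.8 CPM against 75.8, 70.4 and 79.5 CPM, 1.65-fold (log2 fold change 0.72, SE 0.08, edgeR adjusted p = 0.000145). In both genes the groups did not overlap. ISG20, an exonuclease that degrades RNA, went the other way by a small amount. It was at 93.9, 92.0 and 86.2 CPM in PA + DMSO and 81.8, 81.9 and 81.3 CPM in PA + 3-IAA (log2 fold change -0.15, SE 0.06, edgeR adjusted p = 0.0455). That call was lost in 5 of 6 fits that left out a library, with log2 fold changes of -0.15 to -0.13, and held without PA + DMSO replicate 3. TRIM21, a cytosolic antibody receptor and ubiquitin ligase, was at 22.5, 22.8 and 36.4 CPM against 60.3, 59.2 and 58.1 CPM, 2.17-fold higher (log2 fold change 1.12, SE 0.18, edgeR adjusted p = 0.00247).

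The other 8 listed genes, of more varied or less settled roles, were all called higher, against 25.4% of all genes tested. IFI6, a small membrane protein that limits flaviviruses in human cells, was at 4.34, 5.89 and 12.1 CPM in PA + DMSO and 29.0, 25.2 and 25.1 CPM in PA + 3-IAA, 3.53-fold higher (log2 fold change 1.82, SE 0.35, edgeR adjusted p = 0.008). RTP4, which binds and blocks viral replication complexes, was at 33.5, 35.0 and 61.6 CPM against 128, 120.1 and 126 CPM, 2.87-fold (log2 fold change 1.52, SE 0.25, edgeR adjusted p = 0.00437). XAF1, a pro-apoptotic protein, was at 3.95, 5.08 and 6.07 CPM against 13.2, 12.4 and 11.6 CPM, 2.47-fold (log2 fold change 1.30, SE 0.15, edgeR adjusted p = 0.000157). For all 3 the PA + 3-IAA libraries were above every PA + DMSO library, and for XAF1 replicate 3 was nearest to its own group. IFI35 was 1.93-fold higher, EPSTI1 2.32-fold, and SAMD9, which restricts poxviruses, 2.0-fold at 11.1 CPM or less in every library.

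IFI44 and IFI44L stand next to each other in RefSeq gene order, and in 5 of 6 libraries their fractional counts summed to whole numbers, so their split is uncertain. IFI44L was at 6.56, 4.7 and 15.015 CPM in PA + DMSO and 35.4, 34.1 and 38.4 CPM in PA + 3-IAA, 4.05-fold higher (log2 fold change 2.02, SE 0.41, edgeR adjusted p = 0.011) and 6.28-fold without PA + DMSO replicate 3. IFI44 was at 2.12, 1.25 and 9.86 CPM against 23.5, 19.0 and 19.2 CPM, 4.55-fold (log2 fold change 2.19, SE 0.68, edgeR adjusted p = 0.0497) and 11.9-fold without replicate 3. In both genes replicate 3 was well above its 2 partners and below every PA + 3-IAA library. The IFI44 call was lost without any 1 library other than PA + DMSO replicate 3 (log2 fold change 1.79 to 2.25, largest edgeR adjusted p = 0.12).

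The antiviral genes' share of the transcripts was higher with 3-IAA as well. Summed over the 37 rows, deposited TPM was 1336, 1368 and 1915 in PA + DMSO and 3141, 2875 and 3131 in PA + 3-IAA, or 1539.7 ± 325 against 3049 ± 151 (SD, n = 3 each). The 2 groups did not overlap. Per length, ISG15 was the most abundant of the 37 in PA + DMSO at a mean of 259 TPM, followed by MX1 at 192 and IFIT1 at 191. In PA + 3-IAA, MX1 led at 673 TPM, followed by ISG15 at 443 and IFIT1 at 169. The make-up of the sum differed between the groups. MX1 made up 9.53%, 9.88% and 16.3% of it in PA + DMSO and between 21.8% and 22.5% in PA + 3-IAA. IFIT1 made up 15.8%, 14.6% and 8.44% in PA + DMSO and between 5.18% and 5.69% in PA + 3-IAA. OAS1Y stood in place 17 by TPM in PA + DMSO and in place 6 in PA + 3-IAA.

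**Figure D4:**
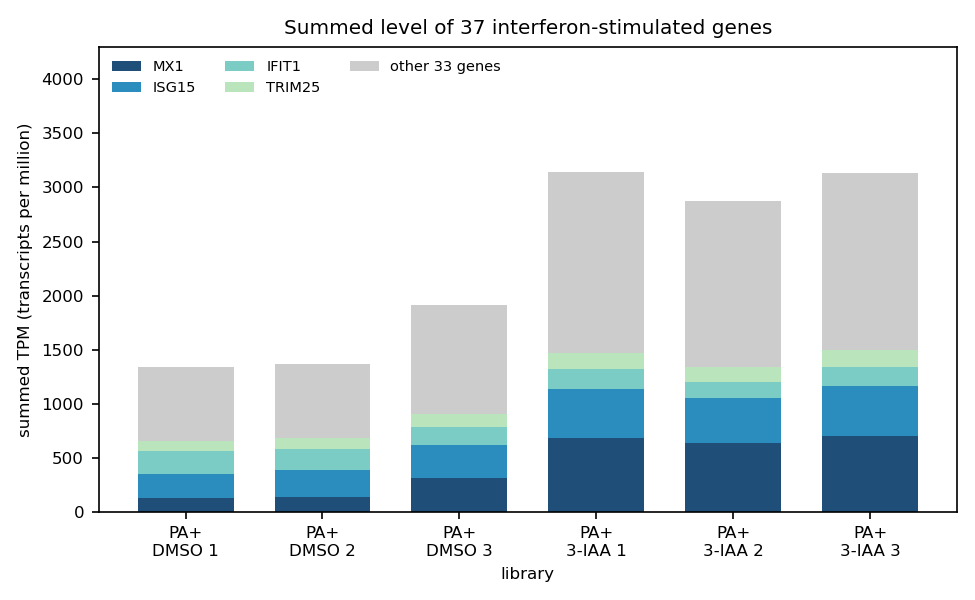
Summed TPM of the 37 antiviral genes in each library, as bars stacked from MX1, ISG15, IFIT1, TRIM25 and the other 33 genes. The sum is between 1336 and 1915 in PA + DMSO and between 2875 and 3141 in PA + 3-IAA, and the MX1 part is larger in every PA + 3-IAA library.

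No interferon transcript reached the test. IFNAG and IFNK had 0 counts in every library, and over the 6 libraries together IFNT had 8 counts, IFNW1 3.89, IFNT3 2, and IFNG and IFNL3 1 each. At this depth a level under 3 counts per library could not be told from 0. IFNB1 and the other interferon symbols without a row were not analysed here. The 2 chains of the type I receptor were both higher with 3-IAA. IFNAR2 was at 45.4, 48.1 and 64.9 CPM in PA + DMSO and 104, 106 and 106 CPM in PA + 3-IAA, 2.0-fold higher (log2 fold change 1.00, SE 0.12, edgeR adjusted p = 0.000444), and IFNAR1 1.48-fold (log2 fold change 0.56, edgeR adjusted p = 0.000663). The receptors of the other interferons did not share one direction. IFNLR1, the specific chain of the type III receptor, was lower (log2 fold change -0.53, edgeR adjusted p = 0.000563), and its partner IL10RB higher (log2 fold change 0.31, edgeR adjusted p = 0.00146). Of the type II receptor, IFNGR1 was lower (log2 fold change -0.42, edgeR adjusted p = 0.00126) and IFNGR2 higher (log2 fold change 0.26, edgeR adjusted p = 0.00698).

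Downstream of the receptors, STAT2 and IRF9, parts of the nuclear complex, were each higher with 3-IAA. STAT2 was at 79.9, 83.2 and 89.0 CPM in PA + DMSO and 112, 115 and 113 CPM in PA + 3-IAA, 1.35-fold higher (log2 fold change 0.43, SE 0.06, edgeR adjusted p = 0.000363). IRF9 (log2 fold change 0.42, edgeR adjusted p = 0.00329) and STAT3 (log2 fold change 0.46, edgeR adjusted p = 0.00667), which serves other cytokines too, were higher as well. Among the kinases TYK2 was higher (log2 fold change 0.54, edgeR adjusted p = 0.00213), while JAK1 (log2 fold change -0.05) and JAK2 (0.01) did not pass. The IRF transcription factors were split. IRF7, which drives interferon genes, was higher (log2 fold change 0.27, edgeR adjusted p = 0.0058), as were IRF2 (log2 fold change 0.67, edgeR adjusted p = 0.00362) and IRF8 (log2 fold change 0.64, edgeR adjusted p = 0.0198). IRF1, an activator that type II interferon induces, was lower (log2 fold change -0.50, edgeR adjusted p = 0.000712), as were IRF5 (log2 fold change -0.42, edgeR adjusted p = 0.0023) and IRF3 (log2 fold change -0.21, edgeR adjusted p = 0.0394). The IRF3 call was lost in 7 alternative fits and the IRF8 call in 5. Of adaptors and kinases that relay sensing, TICAM1 was lower (log2 fold change -0.57, edgeR adjusted p = 0.000176) and TBK1 higher (log2 fold change 0.53, edgeR adjusted p = 0.000536).

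Over the whole list of interferons, receptors, kinases, STATs, IRFs, sensors and adaptors, 48 of 61 symbols had a row and 39 were tested. Of these, 19 (48.7%) were called higher, against 25.4% of all genes, 10 (25.6%) lower, against 25.8%, and 10 did not pass. The median log2 fold change was 0.21, and the share called lower was close to that of all genes. The counts without PA + DMSO replicate 3 were 19 and 10, against 30.9% and 29.7% of all genes. Chosen after their values were seen, TLR3, an endosomal sensor of double-stranded RNA, was 2.85-fold higher (log2 fold change 1.51, edgeR adjusted p = 0.000921), CGAS, the sensor of cytosolic DNA, 1.85-fold (log2 fold change 0.89, edgeR adjusted p = 0.0013), and SOCS3, an inhibitor of cytokine signalling, 4.1-fold (log2 fold change 2.04, edgeR adjusted p = 0.0316; 7.7-fold without PA + DMSO replicate 3). STING1, the adaptor that acts after CGAS, was lower (log2 fold change -0.91, edgeR adjusted p = 0.0171). The SOCS3 call was lost without any 1 library other than PA + DMSO replicate 3, with log2 fold changes between 1.74 and 2.06, and the STING1 call without replicate 2 of PA + DMSO (-0.74) and without replicate 2 (-0.79) or 3 (-0.76) of PA + 3-IAA.

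**Figure D5:**
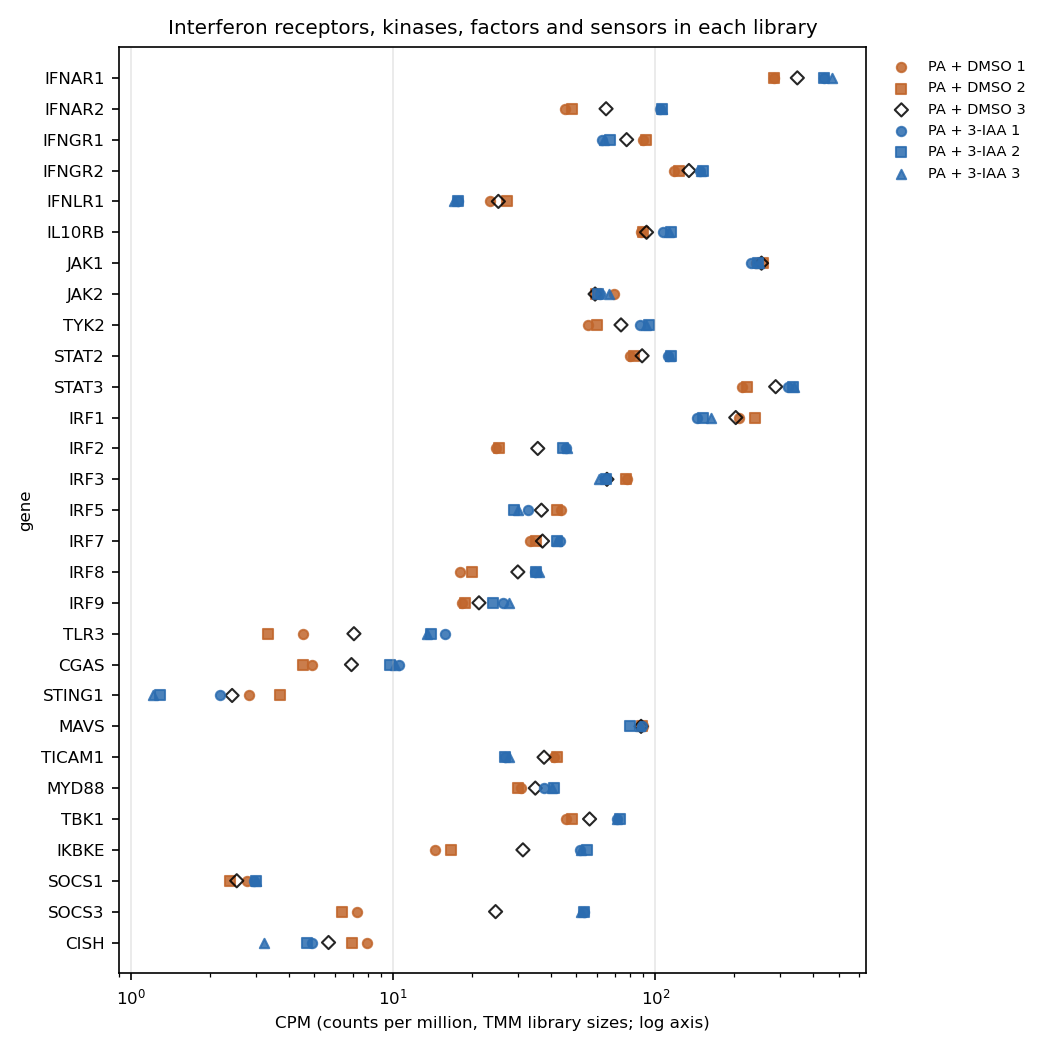
Level in CPM (log axis) in each library of receptor, JAK, STAT, IRF and other signalling genes, 1 point per library. IFNAR1, IFNAR2, STAT2 and IRF9 are higher in the PA + 3-IAA libraries, and IFNGR1, IFNLR1 and IRF1 are lower.

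A second list held 85 symbols of other interferon-stimulated genes, of which 65 had a row and 59 were tested. Of these, 37 (62.7%) were called higher, against 25.4% of all genes, 6 (10.2%) lower, against 25.8%, and 16 did not pass, with a median log2 fold change of 0.42 against 1.13 for the antiviral genes and 0.003 for all genes. Without PA + DMSO replicate 3 the counts were 41 higher and 10 lower of 62, against 30.9% and 29.7% of all genes. STAT2 is on this list and on that of the signalling genes. The antigen-processing genes PSMB8 (log2 fold change 0.72, edgeR adjusted p = 0.000144) and PSMB10 (log2 fold change 0.66, edgeR adjusted p = 9.19e-05), subunits of the immunoproteasome, and LAP3 (log2 fold change 0.62, edgeR adjusted p = 9.15e-05), a peptidase, were higher, as was TDRD7 (log2 fold change 0.42, edgeR adjusted p = 0.000329). Of the 8 with the smallest p, the other 4 were lower. TRIM56, a ubiquitin ligase, was at 188, 192 and 157 CPM in PA + DMSO and 87.3, 86.1 and 88.5 CPM in PA + 3-IAA (log2 fold change -1.04, edgeR adjusted p = 6.4e-05). LGALS9 (log2 fold change -0.70, edgeR adjusted p = 0.000141), a galectin, and RNF19B (log2 fold change -0.70, edgeR adjusted p = 9.06e-05) were lower as well. APOBEC3Z1, a cytidine deaminase, was at 5.72, 7.14 and 3.24 CPM in PA + DMSO and at 0.128, 0.138 and 0.14 CPM in PA + 3-IAA, which is 3 counts in each of these (edgeR adjusted p = 6.9e-05).

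The summed levels of markers of the cell types that such a culture could hold did not overlap between the groups, and the counts of called markers are read against 25.4% of all genes called higher and 25.8% lower. Hepatocyte markers, led by AHSG, TF and APOE, summed to 30482 to 33553 TPM in PA + DMSO and 42136 to 46731 TPM in PA + 3-IAA, with 13 of 17 tested called higher, so markers of the labelled cell type were abundant in every library. Macrophage markers, led by CD68, VSIG4 and CD14, summed to 109 to 128 TPM against 166 to 178 TPM, with 8 of 15 higher and 1 lower, and SPIC was at 0. Lymphocyte markers, led by PTPRC, IL7R and TCF4, gave the other order, 19.4 to 23.0 TPM against 15.4 to 17.4 TPM, with 2 of 6 tested higher and 1 lower, and CD79B, MS4A1 and KLRK1 at 0. Endothelial markers, led by ENG, ESAM and FLT1, summed to 62.5 to 104 TPM against 128 to 142 TPM, with 9 of 16 higher and 2 lower. Stellate cell and fibroblast markers, led by COL3A1, ACTA2 and TAGLN, summed to 1704 to 2344 TPM against 2891 to 2978 TPM, with 4 of 12 higher and 4 lower, near the shares of all genes. Bile duct cell markers, led by KRT7, EPCAM and SPP1, summed to 673 to 858 TPM against 1332 to 1390.3 TPM, with 2 of 6 higher and 1 lower, and TFF2 was at 0. For lymphocytes and bile duct cells the 6 markers tested are too few to read against those shares. A summed level mostly follows its most abundant markers. The median log2 fold change of tested markers was 0.475 for hepatocytes, 0.479 for macrophages and 0.885 for endothelial cells. It was 0.17 for lymphocytes, -0.04 for stellate cells and fibroblasts and -0.02 for bile duct cells, unlike the direction of their summed levels. The part of these cells in the antiviral values was not tested.

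In the authors' deposited table, 33 of the 37 antiviral genes were higher with 3-IAA at an adjusted p under 0.05, against 32 of 36 in the edgeR fit. The share of all genes called higher was 25.4% in the edgeR fit and is not given here for the authors' table. OAS1Y is among the 33 there, with a log2 fold change of 2.07 and an adjusted p of 0.00719 in the authors' deposited table.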

How the data were processed

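Polyadenylated RNA of 6 libraries was analysed from a table that the authors deposited, which gives expected counts (estimated reads per gene) and TPM (abundance per length on a common total) per library. A second deposited table holds the authors' log2 fold changes and p-values. Per the submitters' processing notes, cutadapt 1.9, HISAT2 2.2.1, RSEM and DESeq2 were used, with no roles stated. The genome build and the use of strand are not given in the sources used here, so no coordinates are printed, and antisense reads may be included. Between 17.2% and 19.0% of values per library were fractional. Of the 37 antiviral rows, 17 had a fractional count in at least 1 library, and MX1, DHX58 and EIF2AK2 had one in all 6. Some reads of these genes may have been divided with other loci, by an amount that the counts do not give.

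Counts were rounded and tested in R 4.3.3 with edgeR 4.0.16 (TMM, filterByExpr with a minimum count of 10 and a minimum total of 15, two-sided quasi-likelihood test with robust dispersions, p-values adjusted by Benjamini-Hochberg over 15576 genes, threshold 0.05). The SE is the absolute log2 fold change over the square root of F. The fit was checked only on simulated data with the same dispersion for every gene and no outlying library. That check does not cover a library that stands apart, as PA + DMSO replicate 3 does. Alternatives were RLE and library-total scaling, DESeq2 1.42.0, limma voom 3.58.1, other filters, a replicate block, OAS1 copies summed, and each library left out. Named genes were all antiviral genes; of the signalling and other lists the interferons, receptors, JAKs, STATs and IRFs and the 8 smallest p-values; and of markers the 3 of highest mean TPM. Some of these genes are not reported here. Genes and lists were chosen with earlier results of these data known. Gene neighbours are from RefSeq, assembly ARS-UCD2.0. The floor of 3 counts covers counting error only, while the SDs and SEs reflect the spread between libraries.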

Additional observations from a re-analysis of the deposited data

How the results depend on the processing

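The count of antiviral genes called higher was 32 with all 6 libraries, 27 with no filter on low counts, and 30 with the OAS1 copies summed into 1 row. It was between 31 and 33 under the other scalings, tools and filters and the replicate block. Leaving out each library gave 26 to 33. The count of all genes called higher moved as well, from 3963 to between 3515 (DESeq2) and 4820 (library total) under the other settings. Without each library it was 2986 (without PA + DMSO replicate 2) to 4918 (without PA + DMSO replicate 3). Of the 32, 26 were called under every alternative, and OAS1X, OAS1Z, MX1, MX2, USP18 and IFI44 lost the call without some library. The count called lower, 1 (ISG20), was 0 with scaling by library total, DESeq2, no filter or the replicate block, and 0 to 2 without each library. At an unadjusted p under 0.05 the lower count was 2 with edgeR and all libraries, 2 with DESeq2 and no filter, 1 with the replicate block and 0 with scaling by library total. PARP12 changed sign without PA + DMSO replicate 1 (log2 fold change -0.012), a value that passed no threshold, and ranged from -0.012 to 0.042 without each library. Signalling genes called lower, 10, ranged from 6 to 10 without each library, and other interferon-stimulated genes called lower, 6, from 4 to 10. All genes called lower, 4015, ranged from 3285 to 4726 without each library. The cause of these changes was not tested. Same-numbered libraries correlated at 0.018, 0.029 and 0.022 in their deviations from the group means, all under 0.1, so the numbers were not taken to pair them. Libraries of unlike number correlated lower still, between -0.038 and 0.0088. Whether libraries of the same number share a calf or a day was not tested. The replicate block gave 31 higher and 0 lower, without the calls of IFI44 and ISG20. Scaling by library total moved the median log2 fold change of all genes from 0.003 to 0.075, and the share of calls that were higher from 49.7% to 59.3%. Depth limits the interferons, which had at most 4 counts in a library, and OAS2, which failed the filter with 1 to 18 counts.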

Other observations

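Of the listed genes without a row of their own name, 4 were found through their Entrez numbers, outside the rule that chose the antiviral genes. SP100, a nuclear body protein, was at 11.5, 12.2 and 21.8 CPM in PA + DMSO and 37.8, 38.2 and 41.1 CPM in PA + 3-IAA, 2.56-fold higher with 3-IAA (log2 fold change 1.36, SE 0.24, edgeR adjusted p = 0.00449). IFI16, a DNA sensor, was at 11.5, 14.0 and 14.6 CPM against 18.8, 17.2 and 19.995 CPM, 1.4-fold higher (log2 fold change 0.48, SE 0.11, edgeR adjusted p = 0.00451). For both genes the groups did not overlap and PA + DMSO replicate 3 was the highest of its group. PLAC8 matched 2 rows, PLAC8A (2.45-fold higher, log2 fold change 1.29, edgeR adjusted p = 0.000157) and PLAC8B (3.44-fold, log2 fold change 1.78, edgeR adjusted p = 0.00458), the latter with at most 19 counts in a library. GBP4, a guanylate-binding protein, did not pass (log2 fold change -0.17, edgeR adjusted p = 0.374).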
